A study of Rattus norvegicus with 6 samples.

Results

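Two-pore domain potassium (K2P) channels were followed in dorsal root ganglia of rats, which hold the cell bodies of sensory neurons. The 9 genes Kcnk1, Kcnk6, Kcnk2, Kcnk10, Kcnk4, Kcnk3, Kcnk12, Kcnk13 and Kcnk18 were taken by name, and all 9 were found among the 14346 genes that had a value in at least 1 library. RNA sequencing libraries came from ganglia collected at day 7 after partial sciatic nerve ligation (pSNL, 3 libraries), an injury in which a ligature closes on some axons of the nerve and spares the others, or at day 7 after a sham operation (3 libraries). The sources used here give no strain, sex, age or ganglion level, and do not say whether a library is 1 animal, so the p-values reflect variation between libraries that may include technical variation.

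K2P channels carry background, or leak, potassium current. Each subunit has a pair of pore loops, and the channels work as dimers that are open near the resting potential and hold it negative. In sensory neurons they are known as brakes on firing, and different subfamilies are opened or closed by stretch, heat, acid, lipids, volatile anaesthetics and signals from G protein-coupled receptors. The subfamilies covered are TWIK (Kcnk1 and Kcnk6), TREK and TRAAK (Kcnk2, Kcnk10 and Kcnk4), TASK (Kcnk3), THIK (Kcnk12 and Kcnk13) and TRESK (Kcnk18).

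The libraries held 4310633 to 4416128 estimated counts after rounding, and 1 CPM (a count scaled to library size, with sizes adjusted by TMM, the trimmed mean of M values) was 4.33 to 4.40 counts. As a check of the labels, the injury gene Atf3 was at 97.6, 294 and 234 CPM in pSNL replicates 1 to 3 and at 11.5, 15.8 and 22.8 CPM in sham replicates 1 to 3, so pSNL replicate 1 had the weakest induction. The neuronal marker Rbfox3 was at 45.8 to 55.8 CPM in pSNL and 66.5 to 74.8 CPM in sham ganglia, while the summed level of 10 pan-neuronal genes, Rbfox3 included, was 15599 to 16782 CPM in pSNL and 13699.9 to 15677 CPM in sham, with a median log2 fold change of 0.040. Nefh, the heavy neurofilament of large sensory neurons, was at 9129 to 10595 CPM in pSNL and 9592 to 12308 CPM in sham ganglia. Transcripts of other tissues stood out in sham replicate 3 and pSNL replicate 3. Mog, a myelin gene of the central nervous system, was at 116 CPM in sham replicate 3, against 1.14 to 1.85 CPM in pSNL and 1.84 to 3.90 CPM in the other sham libraries. Acta1, skeletal muscle actin, was at 368 CPM in pSNL replicate 3 and 192 CPM in sham replicate 3, against 8.03 to 11.1 CPM elsewhere.

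No K2P channel gene passed the test for a difference between pSNL and sham ganglia (edgeR quasi-likelihood test, adjusted p of 0.05). Of the 9 genes 8 were tested and 0 passed, where 51 of all 11091 tested genes did (0.46%), 49 of them higher (0.442%) and 2 lower (0.018%). None of the 8 had an unadjusted p under 0.05, against 15.5% of all tested genes, and none passed with DESeq2, against 3%. The same edgeR test called 3 of 6 injury genes, and DESeq2 called all 6. Atf3 was among those not called in edgeR (log2 fold change 3.64, adjusted p = 0.0891). A gene that did not pass is therefore not shown to be unchanged. The 8 fold changes were evenly divided, with 4 above 0 (Kcnk6, Kcnk2, Kcnk10 and Kcnk12) and 4 below (Kcnk1, Kcnk4, Kcnk3 and Kcnk18). Their median log2 fold change was 0.025, against -0.0024 over all tested genes. The pSNL and sham values did not overlap for 2 of the 8, Kcnk2 (higher) and Kcnk3 (lower), where 21.5% of all tested genes showed this in either direction. In whole ganglia, fewer cells of a type and less RNA per cell cannot be told apart.

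Per length, the family was led by Kcnk1 and Kcnk4 in both groups. The deposited FPKM values, which divide by gene length and allow genes to be compared, put Kcnk1 at 33.1, 32.99 and 36.0 in pSNL replicates 1 to 3 and at 39.9, 35.2 and 36.9 in sham replicates 1 to 3. Kcnk4 was at 21.2, 16.98 and 13.2 FPKM in pSNL and 21.7, 19.4 and 18.3 FPKM in sham. Both stood apart from each other and from every other member, since their ranges overlapped with no neighbour in either group. In pSNL the order went on with Kcnk2 (7.28 ± 0.51 FPKM), Kcnk12 (4.94 ± 1.399), Kcnk3 (4.17 ± 0.58), Kcnk18 (2.67 ± 0.68), Kcnk6 (2.17 ± 0.44), Kcnk10 (1.81 ± 0.35) and Kcnk13 (1.09 ± 0.34 FPKM; SD, n = 3 throughout). In sham it went on with Kcnk2 (5.41 ± 1.63 FPKM), Kcnk3 (5.40 ± 0.45), Kcnk12 (4.32 ± 0.57), Kcnk18 (4.19 ± 1.94), Kcnk10 (1.56 ± 0.33), Kcnk6 (1.45 ± 0.23) and Kcnk13 (0.41 ± 0.23 FPKM). Neighbours whose ranges overlapped were Kcnk12 and Kcnk3, Kcnk18 and Kcnk6, Kcnk6 and Kcnk10, and Kcnk10 and Kcnk13 in pSNL, and Kcnk2 and Kcnk3, Kcnk12 and Kcnk18, and Kcnk10 and Kcnk6 in sham.

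**Figure D1:**
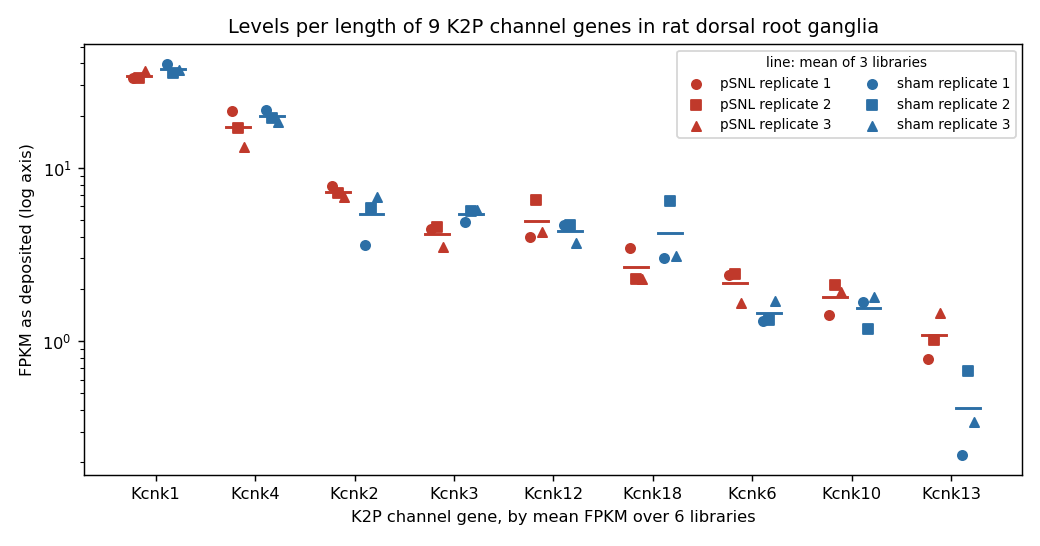
FPKM as deposited (log axis) of the 9 K2P channel genes in each of 3 pSNL (red) and 3 sham (blue) libraries, with horizontal lines at group means. Kcnk1 and Kcnk4 lie above the other members in both groups, and Kcnk13 is the lowest on average, at 1.09 FPKM in pSNL and 0.41 FPKM in sham.

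The summed level of the 9 genes and the shares of Kcnk1 and Kcnk4 lay close together in the 2 groups. The FPKM of the 9 genes added up to 78.7, 76.1 and 71.2 in pSNL replicates 1 to 3 and to 81.0, 80.4 and 78.2 in sham replicates 1 to 3. These sums overlapped only through pSNL replicate 1 and sham replicate 3, and pSNL replicates 2 and 3 lay below all sham sums. Kcnk1 made up 45.3 ± 4.6% of the sum in pSNL and 46.7 ± 2.8% in sham, and Kcnk4 made up 22.6 ± 4.2% in pSNL and 24.8 ± 1.8% in sham. Kcnk2 held 9.66 ± 0.27% in pSNL and 6.80 ± 2.14% in sham (SD, n = 3 each), and its shares did not overlap. The lowest was 4.45% in sham replicate 1, where its deposited length was the longest, and FPKM divides by that length. Shares of one sum depend on each other, and no test was made of them.

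The TWIK subfamily held the most and one of the least abundant members. Kcnk1 (TWIK-1, gene ID 59324) encodes a channel known for small currents, because much of it stays inside the cell. It was at 83.1, 84.1 and 92.9 CPM in pSNL replicates 1 to 3, against 103, 90.4 and 92.8 CPM in sham replicates 1 to 3. The highest pSNL library lay within the sham range, so the groups overlapped. The log2 fold change was -0.14 ± 0.10 (SE; edgeR adjusted p = 0.536), and its 95% interval of 0.78-fold to 1.06-fold was the narrowest of the 8. Kcnk6 (TWIK-2, gene ID 116491), known from lysosomes and from immune cells in mice, was at 4.54, 4.62 and 3.21 CPM in pSNL, against 2.52, 2.52 and 3.22 CPM in sham. pSNL replicates 1 and 2 exceeded all sham libraries, while pSNL replicate 3 was level with sham replicate 3. These values rest on 14 to 20 counts in pSNL and 11 to 14 counts in sham, and the difference of 1.49-fold had an interval of 0.89-fold to 2.503-fold (edgeR adjusted p = 0.442).

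The TREK and TRAAK channels open to membrane stretch, warmth and arachidonic acid, and are known in nociceptors. Kcnk2 (TREK-1, gene ID 170899) was at 21.1, 20.6 and 19.95 CPM in pSNL replicates 1 to 3, against 11.7, 16.98 and 19.5 CPM in sham replicates 1 to 3. Each pSNL library was above each sham library, the nearest pair by less than 1 CPM, and the sham libraries were spread more widely than the pSNL libraries. The log2 fold change was 0.35 ± 0.20 (SE; edgeR adjusted p = 0.418), with a 95% interval of 0.95-fold to 1.73-fold. It was 0.17 without sham replicate 1, the lowest library, and 0.52 without sham replicate 3, the library with central nervous tissue transcripts. Without sham replicate 3 the edgeR adjusted p was 0.274, the lowest over its alternatives, which reached 0.744.

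Kcnk2 is deposited with 2 transcripts, and its length differed between libraries. The deposited length was 2711, 2839 and 2862 bases in pSNL and 3187, 2836 and 2901 bases in sham replicates 1 to 3. The lengths overlapped between the groups, and sham replicate 1 had the longest length together with the fewest counts (51). Kcnk18, also with 2 transcripts, varied by little, with lengths of 1209 to 1218 bases in pSNL and 1206 to 1213 bases in sham. The other 7 members had 1 transcript and 1 length.

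Kcnk10 (TREK-2, gene ID 65272), which in rats is known to set the resting potential of small nociceptors that bind isolectin B4, was at 4.31, 6.47 and 5.96 CPM in pSNL, against 5.27, 3.67 and 5.52 CPM in sham. The groups overlapped over most of their range, and the interval of the difference ran from 0.72-fold to 1.86-fold (edgeR adjusted p = 0.789). Kcnk4 (TRAAK, gene ID 116489), known at the nodes of Ranvier of myelinated afferents, was at 24.7, 20.1 and 15.8 CPM in pSNL replicates 1 to 3, against 25.9, 23.2 and 21.4 CPM in sham replicates 1 to 3. pSNL replicates 2 and 3 were below all sham libraries, while pSNL replicate 1, the library with the least Atf3, lay within the sham range. Its log2 fold change was -0.21 ± 0.18 (SE; edgeR adjusted p = 0.606), -0.38 without pSNL replicate 1 and -0.070 without pSNL replicate 3, 1 of the 2 libraries with muscle transcripts.

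TASK-1 was the one member whose pSNL values all lay below the sham values. Kcnk3 (gene ID 29553), which encodes this acid-sensitive channel opened by volatile anaesthetics, was at 9.08, 9.48 and 7.34 CPM in pSNL replicates 1 to 3, against 10.3, 11.9 and 11.7 CPM in sham replicates 1 to 3. The groups did not overlap, as for 10.4% of all tested genes in this direction, and the nearest libraries were under 1 CPM apart. The log2 fold change was -0.39 ± 0.21 (SE; edgeR adjusted p = 0.417), with a 95% interval of 0.55-fold to 1.06-fold, and it lay between -0.47 and -0.29 with 1 library left out. Its deposited counts were not whole (40.24, 41.12 and 32.17 in pSNL and 44.81, 51.63 and 51.02 in sham). Estimates that divide reads between genes can give such values, but the reason for them here was not tested.

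The THIK channels are known for being closed by halothane. Kcnk12 (THIK-2, gene ID 64119), a subunit largely kept inside the cell, was at 7.49, 12.5 and 8.26 CPM in pSNL, against 8.94, 8.95 and 6.89 CPM in sham. Only pSNL replicate 2 was above the sham libraries; with it the log2 fold change was 0.19 ± 0.27 (SE; edgeR adjusted p = 0.784) and without it the direction turned (-0.074).

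Kcnk13 (THIK-1, gene ID 64120), known as the main K2P channel of microglia in mice, was the least abundant member and showed the largest ratio. It had 7, 9 and 13 counts in pSNL replicates 1 to 3, against 2, 6 and 3 counts in sham replicates 1 to 3, that is 1.59, 2.08 and 2.98 CPM in pSNL and 0.46, 1.38 and 0.69 CPM in sham. Each pSNL library was above each sham library, as for 11.1% of all tested genes, but on only 2 to 13 counts per library. Kcnk13 did not reach the filter on low counts (about 2.28 CPM in 3 libraries), so it was not tested in the comparison above. Over the libraries of a group it had 29 counts in pSNL and 11 in sham, a ratio of 2.63 scaled to library size, with an exact 95% interval of 1.28 to 5.84 that covers counting error only. In a fit without the filter its log2 fold change was 1.36 (edgeR adjusted p = 0.360), and in DESeq2 it was 1.39, with no adjusted p given. The 11 macrophage markers were summed beside it, since microglia and macrophages are related cells. All 11 had values, none was at 0 in any library, and the sum was 315, 522 and 534 CPM in pSNL and 196, 176 and 238 CPM in sham, without overlap. Among them Cd68 was at 7.49, 8.55 and 11.2 CPM in pSNL and 2.29, 4.36 and 3.45 CPM in sham. Aif1 was at 10.2, 14.1 and 12.4 CPM in pSNL and 7.11, 8.03 and 11.3 CPM in sham, with overlap. Of the 11 markers 0 passed the threshold, and their median log2 fold change was 1.17. Their part in the Kcnk13 difference was not tested.

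**Figure D2:**
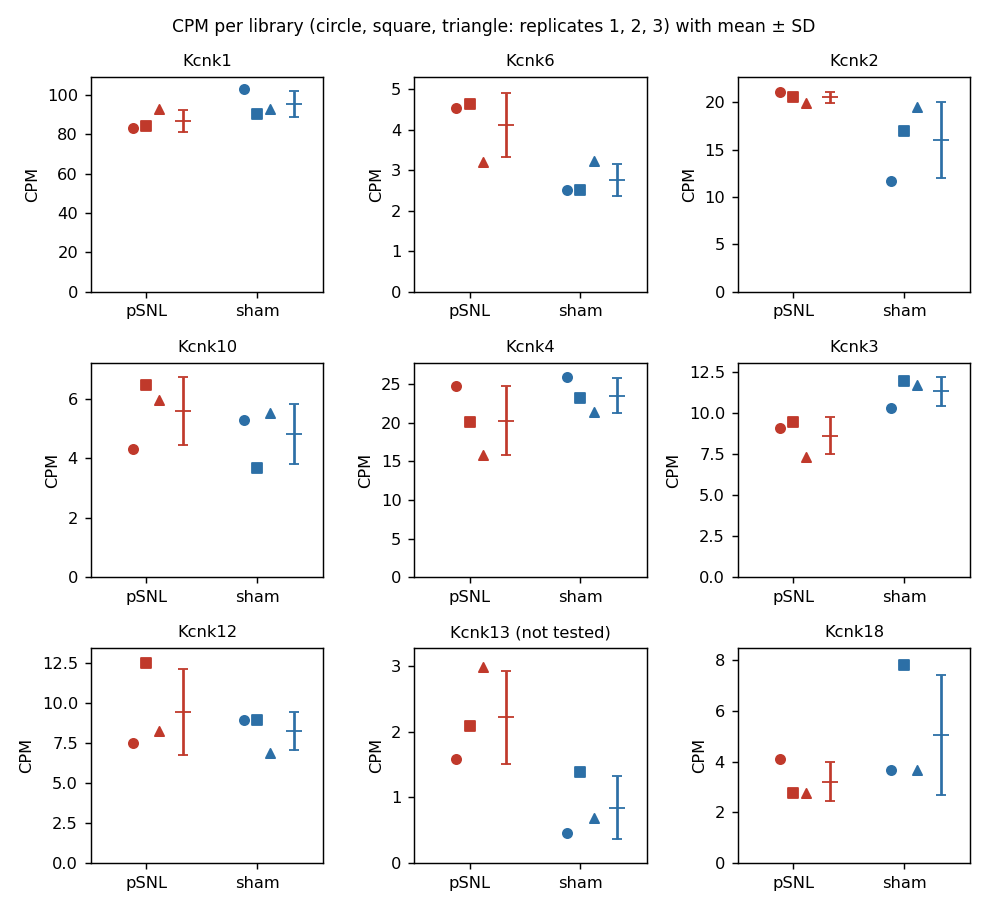
CPM of each member in pSNL (red, left) and sham (blue, right) libraries, with replicates 1, 2 and 3 as circle, square and triangle and the mean ± SD of 3 libraries beside them; every axis starts at 0. The groups do not overlap for Kcnk2, Kcnk3 and Kcnk13, of which Kcnk13 was not tested, where 21.5% of all tested genes showed this. For Kcnk18, sham replicate 2 stands above the other 5 libraries, at 7.80 CPM.

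TRESK, a channel of sensory neurons that calcineurin activates when calcium rises and that has been linked to migraine in humans, had the most negative fold change, and 1 library set its size. Kcnk18 (gene ID 445371) was at 4.09, 2.77 and 2.75 CPM in pSNL replicates 1 to 3, against 3.67, 7.80 and 3.68 CPM in sham replicates 1 to 3. The groups overlapped, and sham replicate 2, with 34 counts against 16 in each other sham library, lay above all other libraries. The log2 fold change was -0.65 ± 0.40 (SE; edgeR adjusted p = 0.468), with a 95% interval of 0.35-fold to 1.17-fold. Without sham replicate 2 it was -0.20, and without each of the other libraries it lay between -0.86 and -0.56.

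**Figure D3:**
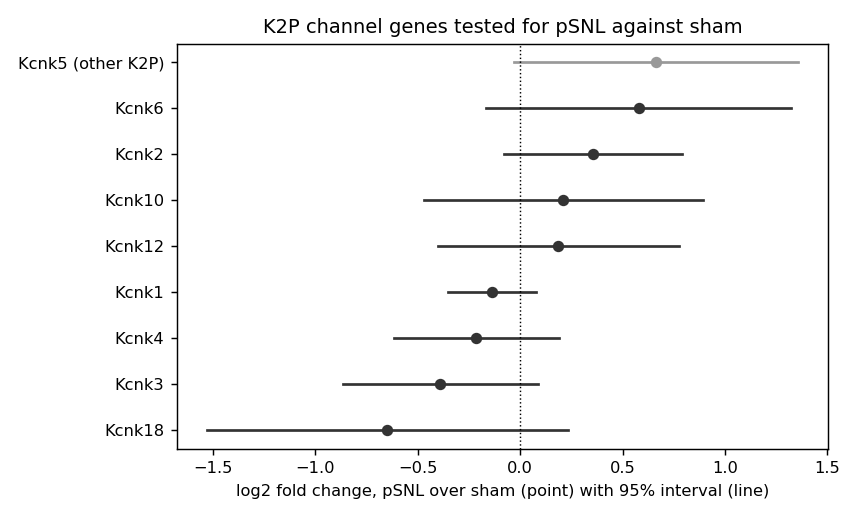
Log2 fold change of pSNL over sham (points) with its 95% interval (lines) for the 8 tested members (black) and Kcnk5 (grey), in order of size. Every interval spans 0, from the narrow one of Kcnk1 (-0.35 to 0.079) to the wide one of Kcnk18 (-1.53 to 0.23).

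Promoter windows are shown as their letters for Kcnk13, which was not tested, and Kcnk18, the members with the largest differences in each direction. RefSeq windows on the rat build GRCr8, from 250 bases before to 50 bases after a transcript start, were at hand for 4 of the 9 members (Kcnk2 with 2 windows, Kcnk4, Kcnk13 and Kcnk18). The windows printed are chr6:124971559-124971858, plus strand, for Kcnk13 and chr1:268360488-268360787, plus strand, for Kcnk18. Capitals mark each CG dinucleotide.
Kcnk13: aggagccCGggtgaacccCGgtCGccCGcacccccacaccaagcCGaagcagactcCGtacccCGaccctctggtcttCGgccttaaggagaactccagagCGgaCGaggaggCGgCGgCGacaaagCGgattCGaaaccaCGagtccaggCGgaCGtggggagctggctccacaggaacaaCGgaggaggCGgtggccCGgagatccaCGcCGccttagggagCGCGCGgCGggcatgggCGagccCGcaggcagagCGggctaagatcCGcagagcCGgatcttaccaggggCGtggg
Kcnk18: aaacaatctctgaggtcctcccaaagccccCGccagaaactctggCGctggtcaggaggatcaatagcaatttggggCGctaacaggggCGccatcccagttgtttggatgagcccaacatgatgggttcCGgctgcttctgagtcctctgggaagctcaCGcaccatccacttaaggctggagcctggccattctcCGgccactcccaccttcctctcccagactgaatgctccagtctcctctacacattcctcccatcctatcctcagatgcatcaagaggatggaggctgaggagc
The Kcnk13 window holds 33 CG dinucleotides and 69% G and C, and the Kcnk18 window 7 and 56.7%, where the median of all 33469 windows was 7 and 51.7%. The Kcnk2 windows hold 9 and 6 CG dinucleotides and the Kcnk4 window 4. A relation of these letters to the fold changes was not tested. The AP-1 motif TGANTCA and the cyclic AMP element TGACGTCA, both of which Atf3 and its partners can bind, were searched on both strands and had no exact match in the 5 windows of the members. These motifs were found in 7.33% and 1.83% of all windows. Of the GC box GGGCGG (33.1% of all windows), the CCAAT box CCAAT (37.5%) and the TATA box TATAAA (14.2%), 1 match was found, a GC box 25 to 20 bases before the Kcnk4 start. A window without a match says only that these letters are absent from it.

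Leaving out single libraries changed the direction of 1 member. Without sham replicate 3 the log2 fold changes were -0.16 for Kcnk1, 0.70 for Kcnk6, 0.31 for Kcnk10, -0.28 for Kcnk4, -0.37 for Kcnk3, 0.069 for Kcnk12 and -0.84 for Kcnk18, with no change of direction. Without pSNL replicate 3, the library with the most muscle transcripts, they were -0.19 for Kcnk1, 0.72 for Kcnk6, 0.37 for Kcnk2, 0.16 for Kcnk10, -0.29 for Kcnk3, 0.27 for Kcnk12 and -0.56 for Kcnk18. Without sham replicate 2, Kcnk10 was at 0.047, the fold change closest to 0 among its fits. No member passed the threshold in any of these 6 fits.

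**Figure D4:**
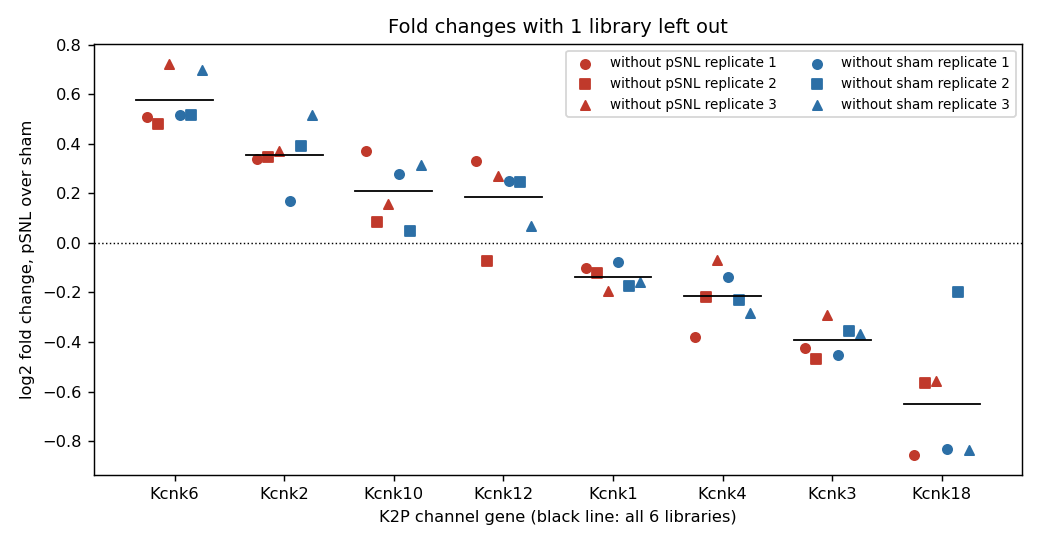
Log2 fold change of pSNL over sham for the 8 tested members with each of 6 libraries left out in turn (pSNL libraries red, sham libraries blue) and with all libraries (black lines). Only Kcnk12 crosses 0, at -0.074 without pSNL replicate 2, and Kcnk18 moves from -0.65 to -0.20 without sham replicate 2.

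Of the other K2P genes 3 had a value and 1 was tested. Kcnk5 (TASK-2, gene ID 364241), a channel of the alkaline-activated TALK subfamily, was at 4.995, 7.40 and 6.19 CPM in pSNL replicates 1 to 3, against 4.81, 3.90 and 2.99 CPM in sham replicates 1 to 3. The groups did not overlap, as for 11.1% of all tested genes in this direction, though pSNL replicate 1 and sham replicate 1 were nearly equal. The log2 fold change was 0.66 ± 0.31 (SE; edgeR adjusted p = 0.348). Kcnk15 had 17, 8 and 5 counts in pSNL and 8, 7 and 14 counts in sham, and Kcnk16 had 1 count over the pSNL libraries and 4 over the sham libraries. Kcnk7, Kcnk9 and Kcnk17 were looked for by symbol and were not found among the genes with a value.

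Proteins that bind, traffic or modify K2P channels did not pass the threshold either. Of 24 tested genes of this list 0 passed with edgeR or DESeq2, 4 had an unadjusted p under 0.05, a share near the 15.5% of all tested genes, and the median log2 fold change was -0.079. The 3 with the smallest p were Ppp3cb and Ppp3r1, subunits of calcineurin, which is known to activate TRESK, and S100a10 (p11), which binds TASK-1. Ppp3cb was at 153, 148 and 144 CPM in pSNL, against 188, 184 and 159 CPM in sham, and Ppp3r1 at 312, 304 and 315 CPM in pSNL, against 345, 364 and 361 CPM in sham. Both were lower in each pSNL library (log2 fold changes -0.25 and -0.20, edgeR adjusted p = 0.222 and 0.241). Of the 24 genes 4 were lower and 2 higher without overlap, where 10.4% and 11.1% of all tested genes were. S100a10 was at 554, 516 and 546 CPM in pSNL and 482, 474 and 380 CPM in sham, higher in each pSNL library (0.27, edgeR adjusted p = 0.241).

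The path from Gq-coupled receptors is known to close TREK and TASK channels, and its list here also held genes of protein kinase A. Of the 17 tested genes of the list 0 passed in edgeR and 1 passed with DESeq2 (3% of all tested genes did). An unadjusted p under 0.05 was found for 2 (15.5% of all tested genes had this). The gene that passed with DESeq2 was Gnaq, the Gq alpha subunit itself, at 13.2, 20.3 and 6.19 CPM in pSNL replicates 1 to 3, against 5.50, 5.28 and 3.45 CPM in sham replicates 1 to 3. Each pSNL library was above each sham library, as for 11.1% of all tested genes. The pSNL libraries differed widely, and the call depended on them (log2 fold change 1.47 ± 0.42, SE; edgeR adjusted p = 0.150, DESeq2 adjusted p = 0.0495, and 0.0412 to 0.445 over its alternatives). Without pSNL replicate 3 edgeR called Gnaq (log2 fold change 1.81, adjusted p = 0.0412) and the protein kinase C gene Prkce (0.98, adjusted p = 0.0208). Prkaca, a catalytic subunit of protein kinase A, which inhibits TREK-1, was at 229 ± 19.6 CPM in pSNL and 267 ± 7.99 CPM in sham (SD, n = 3 each; edgeR adjusted p = 0.256). The bradykinin receptor gene Bdkrb2 was at 22.0 ± 9.5 CPM in pSNL and 14.3 ± 4.0 CPM in sham (edgeR adjusted p = 0.404). Over the 17 genes the median log2 fold change was 0.044.

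Of 19 tested genes for other conductances and pumps that set the resting potential, 0 passed in edgeR, 4 had an unadjusted p under 0.05 (15.5% of all tested genes did) and 2 passed with DESeq2 (3% of all tested genes did). Atp1b1, the beta-1 subunit of the sodium-potassium pump and one of these, was at 1463, 1453 and 1501 CPM in pSNL, against 1768, 1797 and 1893 CPM in sham, with a narrow spread in both groups (log2 fold change -0.31 ± 0.08, SE; edgeR adjusted p = 0.116, DESeq2 adjusted p = 0.00365, and up to 0.340 over its alternatives). Kcnj10, an inward rectifier of satellite glia, was at 18.4, 19.2 and 7.57 CPM in pSNL and 8.71, 5.28 and 8.96 CPM in sham, with overlap (edgeR adjusted p = 0.256). The sodium leak channel gene Nalcn was at 74.4 ± 3.0 CPM in pSNL and 73.3 ± 6.5 CPM in sham (SD, n = 3 each; edgeR adjusted p = 0.941); it was chosen after its values were seen. Over the 19 genes the median log2 fold change was -0.19.

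Markers of the cells that could hold K2P transcripts overlapped between the groups for most lists. The 10 pan-neuronal genes, whose sums are given above, had none at 0. Of 10 genes of large myelinated neurons 9 had values, summing to 30696 to 34448 CPM in pSNL and 34361 to 43355 CPM in sham. The 11 nociceptor genes summed to 6898 to 7626 CPM in pSNL and 5929 to 8137 CPM in sham. The 7 satellite glia genes summed to 4969.8 to 6097 CPM in pSNL and 6339 to 6779 CPM in sham, without overlap. This list did not move as one, since Fabp7 was lower in pSNL (log2 fold change -1.24) and Kcnj10 higher (0.97). Of the 7 genes 0 passed in edgeR, and a sum is led by its most abundant genes. The 9 Schwann cell genes summed to 21797 to 33477 CPM in pSNL and 19894 to 28299 CPM in sham. The 10 genes of vessels summed to 242 to 265 CPM in pSNL and 221 to 347 CPM in sham. Central tissue genes (10, with Opalin and Olig1 at 0 in some library) summed to 887 to 1327 CPM in pSNL and 880.1 to 3150 CPM in sham, and 9 muscle genes to 15.2 to 1039 CPM in pSNL and 13.8 to 545 CPM in sham. Their part in the K2P values was not tested.

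By library profile, the genes most like the 2 most abundant members were found among 11032 other tested genes with a symbol, by Pearson's r of log2 CPM over 6 libraries. They were Bsdc1 (r = 0.99), Cct5 (0.99) and Nudt16l1 (0.98) for Kcnk1, and Efr3a (0.99), Pdzd8 (0.99) and Ighmbp2 (0.98) for Kcnk4. They were the highest of 11032 values over 6 points, and describe these libraries only.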

How the data were processed

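The authors deposited 1 table per library of genes with their length, expected count and FPKM, per the file headers. Of the authors' expected counts 89.1% to 89.5% were whole. Per the file headers, the authors also gave FPKM, which is scaled to length and library size. CASAVA 1.4 and Bowtie2 are named in the submitters' processing notes. The sources used here name no quantifier, build, annotation or strandedness.

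Genes missing from a file were set to 0. Gene IDs were matched to symbols in the RefSeq table of GRCr8 (14227 of 14346 by gene ID, 16 by transcript accession). Expected counts were rounded and tested with edgeR 4.0.16 in R 4.3.3 (TMM factors, default low-count filter, robust quasi-likelihood F test, Benjamini-Hochberg adjustment over all tested genes). DESeq2 1.42.0 and limma 3.58.1 on log2(FPKM + 0.1) served as alternatives. Standard errors and 95% intervals came from the F statistic. The fit was tested on simulated data with the same dispersion for every gene and no transcripts of other tissues in single libraries. That test does not cover the differences between libraries seen here. Named genes were all K2P genes, listed genes past the threshold, the 3 smallest p per list, and the 3 nearest profiles of the 2 most abundant members; 1 gene is not reported here. Members and lists were chosen with earlier results of these data known. The 3 replicates of each group differed from each other by more than sampling noise (chi-square per degree of freedom 2.97 to 14.6).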

Additional observations from a re-analysis of the deposited data

How the results depend on the processing

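No K2P member passed the threshold under any of the 12 alternatives run, which were 2 other scalings, no low-count filter, DESeq2, the replicate block, limma on FPKM, and each library left out. Directions held for 7 of the 8 tested members; Kcnk12 ran from -0.074 without pSNL replicate 2 to 0.33 without pSNL replicate 1. The levels per length moved by less than the replicate SD when recomputed from counts. Over all genes, 51 calls became 91 without the filter, 339 with DESeq2, 111 with the replicate block, and 5 to 217 with 1 library left out; the cause was not tested. Of the regulator, receptor and other conductance genes, 3 were called by DESeq2 (Gnaq and Atp1b1 among them), where 3% of all tested genes were. These were 0 of 24 tested regulators, 1 of 17 receptor path genes and 2 of 19 conductance genes. With 1 library left out edgeR called 0 to 2 of them, the 2 only without pSNL replicate 3. Whether the numbers in the titles pair the libraries is not known. Deviations of same-numbered libraries from their group means correlated at 0.032, 0.011 and 0.12, which cannot exclude a shared animal or batch. The largest value, 0.12, was for replicate 3, the 2 libraries with muscle transcripts. Pairs with different numbers ran from -0.104 to 0.103, so 0.12 hardly stood out. With the replicate block the K2P members again had 0 calls. At 4.3 to 4.4 counts per CPM, the less abundant members rest on few counts per library (14 to 20 in pSNL and 11 to 14 in sham for Kcnk6, 19 to 28 and 16 to 24 for Kcnk10, 12 to 18 and 16 to 34 for Kcnk18, 7 to 13 and 2 to 6 for Kcnk13), which limits what could be seen for them.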
